A study of Danio rerio with 20 samples.

Results

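Photoreceptors were compared with amacrine and horizontal cells sorted from the same kind of zebrafish retina, at 42 hours post fertilization. The comparison takes 10 of the 20 libraries of the data set, 5 a side, chosen by their labels. All embryos carried 3 transgenes in which regulatory regions of a gene drive a membrane-bound fluorescent protein: Tg(ath5:gap-RFP) for atoh7, formerly ath5, Tg(crx:gap-CFP) for crx and Tg(ptf1a:gal4,UAS:gap-YFP) for ptf1a. Photoreceptors were the cells positive for the ath5 and crx reporters and negative for the ptf1a reporter. Amacrine and horizontal cells were positive for the ath5 and ptf1a reporters and negative for the crx reporter, so these 2 cell types share a gate and cannot be told apart here. The gates also limit what each group stands for, since only cells with the ath5 reporter entered either group. Per the labels, 25 retinas were pooled for a replicate, each library was made from 500 sorted cells, and embryos were kept at 28 °C until 24 hours, at 21 °C until 30 hours and at 28 °C thereafter. The other 10 libraries, of retinal ganglion cells and progenitors, serve here only to show where those cells lie for the same genes.

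Photoreceptors turn light into an electrical signal and pass it on with glutamate from ribbon synapses. Horizontal cells and most amacrine cells are inhibitory interneurons that use GABA or glycine. Both branches leave the cell cycle from retinal progenitors and are set apart by transcription factors: crx, neurod1 and nuclear receptors on the photoreceptor side, and ptf1a, AP-2 factors and Pax6 on the amacrine and horizontal side. The comparison therefore asks which genes separate the sorted groups at an age when outer segments are still to form.

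Levels are given in CPM, counts per 1e+06 of a library's total after scaling, and values of single libraries run from replicate 1 to 5. Total counts ranged from 21.2 to 28.3 M in photoreceptor libraries and from 22.9 to 30.8 M in amacrine and horizontal libraries (M, 1e+06 counts). Amacrine and horizontal replicate 1 stood apart: it lay at 342 on the first principal component, against -112.1 to 120 in the other 9 libraries, and its top 100 genes held 48.7% of all its counts. It also held red blood cell transcripts. The globin gene hbae1.1 reached 1997 CPM there, against at most 0.683 CPM in the other 9 libraries, and alas2, an enzyme of heme synthesis, reached 35.5 CPM, against at most 0.0476 CPM. The leukocyte gene lcp1 reached 149 CPM in the same library and at most 0.0340 CPM elsewhere. Photoreceptor replicate 1 had the highest summed level of the 19 measured retinal ganglion cell markers in its group, 667 CPM, against 138 to 284 CPM in the other 4. Several results that rest on either library are given with and without it.

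Of 11488 genes tested, 553 differed between the groups at an adjusted p under 0.05 (4.81%). Photoreceptors were higher for 289 genes (2.52%) and lower for 264 (2.30%). For 525 of the 553, all 5 libraries of one group lay above all 5 of the other, which was so for 1289 genes of all those tested (11.2%). Of the genes higher in photoreceptors, 42 had no count in any amacrine and horizontal library. Of the genes lower in photoreceptors, 3 had none in any photoreceptor library. Genes with no or few counts in a group passed the filter on low counts through the other group and could only be called higher there. The share of all genes tested with no count in a group is not given here. Amacrine and horizontal libraries also held fewer genes with a count (mean 14264, against 16641), so the 42 and the 3 are not compared. The median log2 fold change over all genes tested was 0.02, and 50.9% of them were positive. With library totals alone in place of scaled totals the median was 0.16, and 62.4% of the calls were higher in photoreceptors, against 52.3% with scaling. Without amacrine and horizontal replicate 1, 1039 genes were called (8.47% of 12269), 643 higher (5.24%) and 396 lower (3.23%), and 547 of the 553 were among them. Without photoreceptor replicate 3, 359 genes were called, 158 of them lower, and 351 were among the 553. Genes called higher numbered 436 without photoreceptor replicate 1 and 461 without amacrine and horizontal replicate 5. The fit to all 20 libraries called 1205 genes (8.71% of 13838). The labels also give each sample a track number, in 2 ranges. Within the range that holds photoreceptor replicates 3 to 5 and amacrine and horizontal replicates 2 to 5, 985 genes were called (7.72% of 12753), 463 of them shared with the 553. The other range holds 2 photoreceptor libraries and 1 amacrine and horizontal library, too few for a value of its own. In bulk samples, fewer cells of a type and less RNA per cell cannot be told apart, and this holds for every level below. The labels do not say whether replicates came from separate clutches, so p-values measure the spread between these libraries. With the replicate number added to the fit as a block, 223 genes were called, 214 of them among the 553. Of 115 named genes that were called, 60 kept their call with that block. Losses with the block are not listed gene by gene below, so a gene said to keep its call may still lose it with the block.

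**Figure D1:**
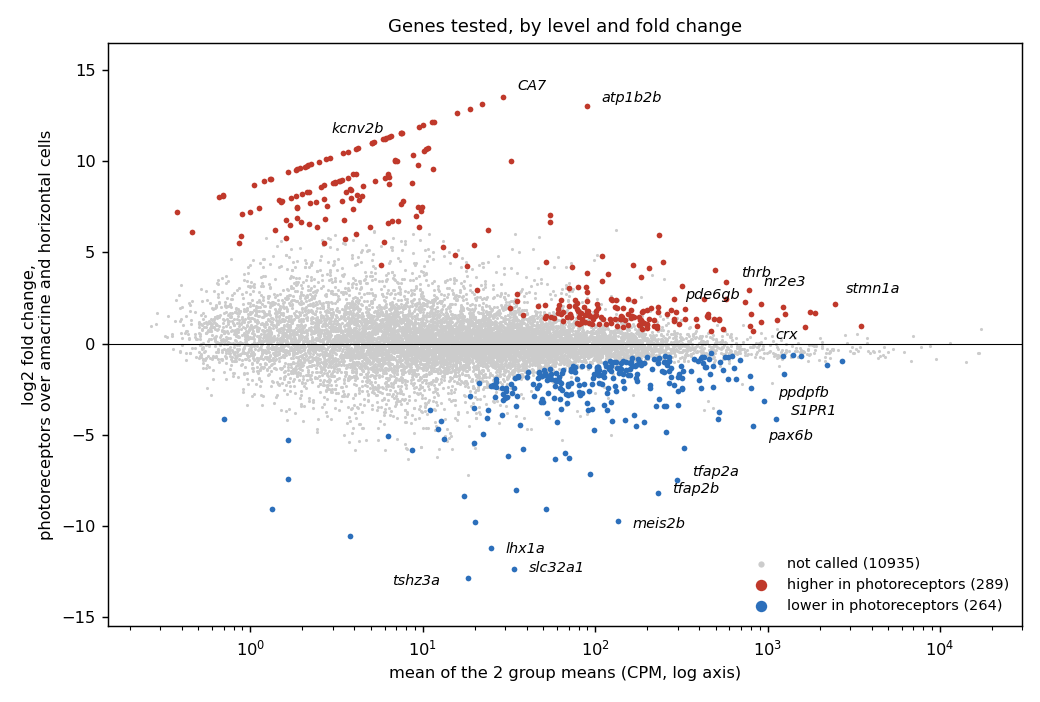
Each point is a gene tested, placed by the mean of the photoreceptor and the amacrine and horizontal group means (x, CPM, log axis) and by its log2 fold change (y, above 0 is higher in photoreceptors). Red points are the 289 genes called higher in photoreceptors, blue points the 264 called lower, grey points the rest; the diagonal rows at the upper left are genes with no or few counts in amacrine and horizontal cells, whose fitted fold change depends on a small added count.

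The genes behind the reporters were examined as a check of the labels. The homeobox gene crx (ENSDARG00000011989, chromosome 5, 36932718 to 36936443; assembly GRCz11, as are all positions here), an activator of photoreceptor genes, had 1225, 787, 1132, 1868 and 1277 CPM in photoreceptors, against 414, 593, 538, 607 and 651 CPM in amacrine and horizontal cells. Every photoreceptor library lay above every amacrine and horizontal library, although crx RNA was plentiful in amacrine and horizontal cells as well (log2 fold change 1.17, SE 0.22, adjusted p 0.00893). Another gene carries the symbol in capitals, CRX (ENSDARG00000043483), and is named after its values were seen. It was also called higher in photoreceptors and is not counted in the lists. The bHLH gene ptf1a (ENSDARG00000014479, chromosome 2, 29710857 to 29711761), which is required for amacrine and horizontal fates, had 19.9, 133, 65.5, 58.5 and 25.7 CPM in photoreceptors, against 268, 103, 313, 226 and 54.0 CPM in amacrine and horizontal cells. Photoreceptor replicate 2 lay above amacrine and horizontal replicates 2 and 5, photoreceptor replicates 3 and 4 lay above replicate 5, and the difference did not pass the threshold (log2 fold change -1.67, SE 0.57, adjusted p 0.145). The bHLH gene atoh7 (ENSDARG00000069552, chromosome 13, 25449681 to 25450725), whose reporter both groups carried, had 985, 389, 166, 98.1 and 307 CPM in photoreceptors, against 4079.9, 1171, 1777, 854 and 804 CPM in amacrine and horizontal cells. Photoreceptor replicate 1 was the highest of its group and amacrine and horizontal replicate 1 the highest of all, and the groups overlapped (log2 fold change -2.16, SE 0.63, adjusted p 0.0804). Without photoreceptor replicate 1 the adjusted p for atoh7 was 0.0143, and without amacrine and horizontal replicate 1 it was 0.124.

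Photoreceptor transcription factors held more genes higher in photoreceptors than any other list. The lists differ in size and were chosen with earlier results of these data known. This list also includes crx, whose reporter set the gate. Of 18 matched members 16 were tested, and 8 were called higher and 2 lower, where 2.52% and 2.30% of all genes were called, with a median log2 fold change of 2.23 over the 16; without amacrine and horizontal replicate 1 the counts were 11 and 3. The orphan nuclear receptor nr2e3 (ENSDARG00000045904, chromosome 25, 22274642 to 22278655), known in mammals for its role in rod fate, had 1377, 1381, 1616, 1414 and 1090.0 CPM in photoreceptors, against 359, 119.7, 233, 116 and 74.8 CPM in amacrine and horizontal cells. No library overlapped, with photoreceptor levels several times those of the other group (log2 fold change 2.93, SE 0.39, adjusted p 0.0011). The bHLH gene neurod1 (ENSDARG00000019566, chromosome 9, 44291721 to 44295071) had 1332, 2223, 2081, 2227 and 2015 CPM in photoreceptors, against 605, 474, 489.7, 519.7 and 350.2 CPM in amacrine and horizontal cells. Its lowest photoreceptor library, replicate 1, was still above the highest of the other group (log2 fold change 2.02, SE 0.20, adjusted p 0.000179). The thyroid hormone receptor thrb (ENSDARG00000021163, chromosome 19, 17514631 to 17658253), required for red cones in zebrafish, had 1248, 734, 1297, 1012 and 947 CPM in photoreceptors, against 243, 96.0, 27.7, 102 and 45.7 CPM in amacrine and horizontal cells. Amacrine and horizontal levels spread widely, with replicate 1 highest, but stayed under all photoreceptor libraries (log2 fold change 3.35, SE 0.51, adjusted p 0.00256). Each of crx, nr2e3, neurod1 and thrb kept its call when any 1 library was left out.

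The other 4 members called higher are named here after their values were seen. The zebrafish cone factor six7, which green opsin expression needs, had 541, 701, 733, 742 and 882 CPM in photoreceptors, against 248, 56.2, 133, 102 and 126 CPM in amacrine and horizontal cells. The groups did not overlap (log2 fold change 2.44, SE 0.33, adjusted p 0.00145). The polycomb-linked repressor samd7, known from mouse rods, had 257, 420.2, 351, 326 and 349.5 CPM in photoreceptors, against 20.1, 30.5, 23.1, 49.7 and 14.5 CPM in amacrine and horizontal cells. Amacrine and horizontal levels were low in all 5 libraries (log2 fold change 3.63, SE 0.33, adjusted p 0.000119). The T-box gene tbx2a averaged 136 ± 29.9 CPM in photoreceptors and 45.1 ± 13.5 CPM in amacrine and horizontal cells (n = 5 each, SD; log2 fold change 1.59, SE 0.28, adjusted p 0.00643). The LIM homeobox gene lhx4 had 207, 147, 119.5, 167 and 158 CPM in photoreceptors, against 1.27, 35.9, 4.33, 20.2 and 29.7 CPM in amacrine and horizontal cells, without overlap (log2 fold change 3.13, SE 0.71, adjusted p 0.0248). The call for lhx4 was lost without photoreceptor replicate 3, 4 or 5 or amacrine and horizontal replicate 4, with log2 fold changes of 2.81 to 3.52 over the 10 omissions and an adjusted p of at most 0.054, and in the fit to all 20 libraries.

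Both members called lower lost their call when some single libraries were left out. The homeobox gene otx2b, which acts in photoreceptors and bipolar cells, had 273, 251.7, 305, 301 and 369.7 CPM in photoreceptors, against 336, 696, 468, 526 and 553 CPM in amacrine and horizontal cells. Its groups overlapped (log2 fold change -0.78, SE 0.20, adjusted p 0.0466), and the call was lost without any of the 10 libraries except amacrine and horizontal replicate 1 (adjusted p up to 0.135), with other library scalings and with other filters on low counts. The gene samd11, a relative of samd7, had 13.9, 16.3, 16.6, 35.6 and 22.7 CPM in photoreceptors, against 50.7, 81.7, 178, 56.6 and 52.8 CPM in amacrine and horizontal cells (log2 fold change -1.996, SE 0.45, adjusted p 0.0248). Amacrine and horizontal replicate 3 was more than double any other library of its group, and the call was lost without it or without photoreceptor replicate 2, 3 or 5 (adjusted p up to 0.0813), with unscaled totals and within the larger track range. Among members not called, prdm1a, which opposes bipolar fate in mouse, had 283, 412, 499, 635 and 463 CPM in photoreceptors, against 0, 61.6, 76.9, 13.3 and 47.2 CPM in amacrine and horizontal cells. All photoreceptor libraries were above the other group, in which replicate 1 had no count (log2 fold change 3.53, SE 1.02, adjusted p 0.0783). Without replicate 1, the adjusted p for prdm1a was 0.00182. The members tbx2b and rorb overlapped and were not called (adjusted p 0.0968 and 0.0844), and they went opposite ways. With 1 library left out, log2 fold changes were 0.61 to 0.91 for tbx2b and -1.20 to -0.86 for rorb. The adjusted p for tbx2b was 0.0261 without amacrine and horizontal replicate 4. For rorb, lower in photoreceptors, it was 0.0497 without photoreceptor replicate 1 and 0.0354 without amacrine and horizontal replicate 1.

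**Figure D2:**
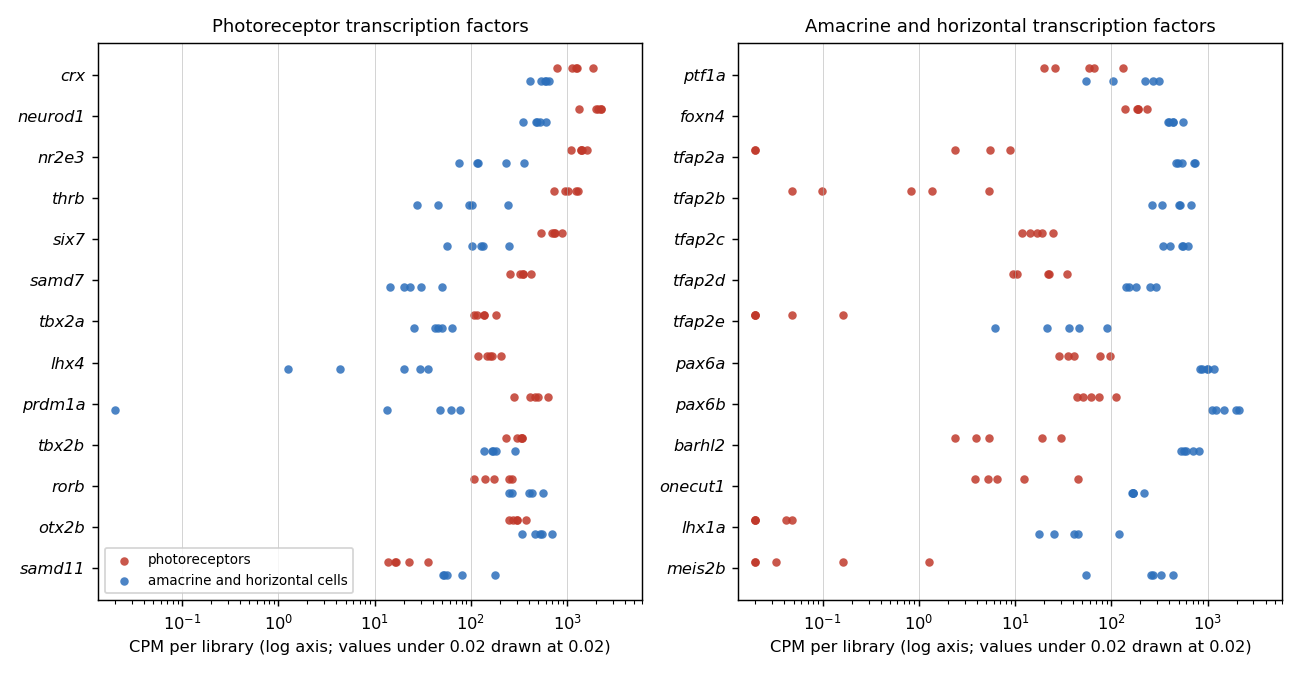
Each dot is 1 library's level (x, CPM, log axis) for a gene (rows), with photoreceptors in red above amacrine and horizontal cells in blue; left, members of the photoreceptor list, right, members of the amacrine and horizontal list. The 8 photoreceptor factors called higher show no overlap, prdm1a does so without being called, tbx2b, rorb and otx2b overlap, and on the right only ptf1a has mixed dots.

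Genes of light transduction were mostly too low to test. Only 8 of 42 matched members had enough counts to be tested. Of these, 3 were called higher and none lower, where 2.52% and 2.30% of all genes were called. Without amacrine and horizontal replicate 1, 6 of 10 were called higher, where 5.24% of all genes were. Of the 8, 4 had a positive log2 fold change. The members gnb1b, gnb3a and gucy2d were not called, and their log2 fold changes were negative whichever library was left out. The inhibitory phosphodiesterase subunit pde6gb (ENSDARG00000101984, chromosome 12, 35980541 to 35988586) was by far the most abundant, with 1416, 1591, 1400.2, 1592 and 1497 CPM in photoreceptors, against 541, 154, 236, 323 and 432 CPM in amacrine and horizontal cells. Photoreceptor libraries were alike, and all lay far above the other group (log2 fold change 2.15, SE 0.29, adjusted p 0.00138). The cone transducin subunit gngt2a (ENSDARG00000010680) had 84.4, 118, 129, 199 and 166 CPM in photoreceptors, against 0, 11.4, 6.14, 10.3 and 9.70 CPM in amacrine and horizontal cells. The groups did not overlap (log2 fold change 4.21, SE 0.92, adjusted p 0.0203), but the call was lost when either photoreceptor replicate 4 or amacrine and horizontal replicate 3 was left out (adjusted p up to 0.0542). Without amacrine and horizontal replicate 1 the adjusted p for gngt2a was 0.000123. The cone cyclic-nucleotide-gated channel cnga3a (ENSDARG00000070726) had 10.7, 15.4, 16.52, 12.1 and 7.003 CPM in photoreceptors, against 0.363, 0.0340, 0.0476, 0.0421 and 0.119 CPM in amacrine and horizontal cells. Levels were low but present in all 5 photoreceptor libraries and near the detection limit in the other group (log2 fold change 6.63, SE 1.19, adjusted p 0.00678). Recoverin, rcvrna, a calcium sensor, had 32.7, 76.3, 89.5, 51.5 and 103 CPM in photoreceptors, against 0, 5.07, 5.57, 0.0421 and 0 CPM in amacrine and horizontal cells. Its groups did not overlap and the test was missed (log2 fold change 5.04, SE 1.504, adjusted p 0.0892), but not without amacrine and horizontal replicate 1 (adjusted p 0.0479).

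Opsins were low in both groups. The blue opsin gene opn1sw2, the opsin with enough counts to be tested, had 0, 1.80, 1.07, 0.675 and 2.22 CPM in photoreceptors, against 0, 1.43, 0, 4.42 and 0 CPM in amacrine and horizontal cells. The groups overlapped (log2 fold change -0.02, SE 1.76, adjusted p 0.998). Other opsins and several further members could not be tested. The red opsin genes opn1lw1 and opn1lw2 had 40 and 59 counts over the 5 photoreceptor libraries and 0 in amacrine and horizontal cells. The green opsin genes opn1mw2 and opn1mw3 had no count in either group. The rod transducin gene gnat1 had 0, 10.99, 5.89, 6.51 and 3.79 CPM in photoreceptors, against 0, 0, 0, 0.0841 and 0 CPM in amacrine and horizontal cells. Photoreceptor replicates 2 to 5 held it, and replicate 1 did not. The cone transducin gene gnat2 had 1 count in each group. The arrestin gene sagb had 0, 0, 0.577, 13.0 and 1.52 CPM in photoreceptors, against 0, 0, 0, 0.0421 and 0 CPM in amacrine and horizontal cells, so that photoreceptor replicate 4 held most of it.

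Few structural genes of the outer segment and its cilium were high enough to test. Of 27 matched members 9 were tested, and 3 were called higher and none lower, where 2.52% and 2.30% of all genes were called. Among the 3, unc119a and rpgrip1 had no count in amacrine and horizontal cells. They passed the filter on low counts through photoreceptors alone and could only be called higher. Without amacrine and horizontal replicate 1, 6 of 12 were called higher, where 5.24% of all genes were. The lipid-binding trafficking protein unc119.2 (ENSDARG00000044362, chromosome 21, 39121453 to 39177564) had 114, 272, 227.1, 219 and 267 CPM in photoreceptors, against 52.9, 59.1, 32.9, 35.4 and 31.1 CPM in amacrine and horizontal cells. No libraries overlapped (log2 fold change 2.38, SE 0.30, adjusted p 0.000934). Its relative unc119a had 2.43, 19.2, 10.8, 5.16 and 4.53 CPM in photoreceptors, against 0, 0, 0, 0 and 0 CPM in amacrine and horizontal cells. The other group had no count, which puts photoreceptors at least 67.4-fold higher against a floor of 3 counts per library (adjusted p 0.00954). The connecting-cilium scaffold rpgrip1 (ENSDARG00000076055) had 8.61, 6.998, 14.6, 25.9 and 9.72 CPM in photoreceptors, against 0, 0, 0, 0 and 0 CPM in amacrine and horizontal cells. It was at least 105-fold higher in photoreceptors (adjusted p 0.00549). The trafficking gene tulp1a had 108, 158, 123, 107 and 117 CPM in photoreceptors, against 0.0453, 24.5, 21.1, 14.4 and 6.45 CPM in amacrine and horizontal cells. Photoreceptors were above in every library, yet the test was missed (log2 fold change 3.203, SE 0.89, adjusted p 0.0655), and amacrine and horizontal replicate 1, the lowest library, was decisive: without it the adjusted p was 0.00115. The disc proteins prph2a, prph2b, rom1a and rom1b stayed too low to be tested, at no more than 4.64 CPM in any photoreceptor library. The discs' membrane organizer prom1a had 0, 0, 11.2, 15.22 and 8.24 CPM in photoreceptors, against 0, 0.0340, 0.0476, 0 and 0.158 CPM in amacrine and horizontal cells. The 3 photoreceptor libraries of the larger track range held it, and replicates 1 and 2, of the other range, did not. The part of the track range in this split was not tested.

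Genes of the primary cilium were called at about the share of all genes. Of 42 matched members 41 were tested, and 2 were called higher and none lower (4.88%, against 4.81% of all genes). Of the 41, 34 had a positive log2 fold change and the median was 0.83, where 50.9% of all genes were positive with a median of 0.02. The BBSome recruiter arl6 (ENSDARG00000032056) had 87.1, 198, 213, 147 and 145 CPM in photoreceptors, against 38.7, 15.8, 3.24, 34.0 and 18.8 CPM in amacrine and horizontal cells, without overlap (log2 fold change 2.84, SE 0.55, adjusted p 0.00921). The ARL3 regulator rp2 had 98.0, 74.2, 109.6, 101 and 96.7 CPM in photoreceptors, against 60.9, 11.2, 26.2, 17.9 and 14.4 CPM in amacrine and horizontal cells (log2 fold change 1.88, SE 0.45, adjusted p 0.0334). Its call was lost without any library other than amacrine and horizontal replicate 1 (adjusted p up to 0.0793) and in the fit to all 20 libraries. Without that replicate the adjusted p for rp2 was 0.00075. Ribbon synapse genes gave no call among 9 tested of 26 matched. Of the 9, 4 had a positive log2 fold change, and the median was -0.15. The members rims2a, sv2bb and cplx3b had negative log2 fold changes whichever library was left out. The ribbon-linked syntaxin stx3a had 6.23, 21.3, 24.1, 26.9 and 15.6 CPM in photoreceptors, against 0.136, 0.0680, 1.90, 4.12 and 0.0396 CPM in amacrine and horizontal cells, a separation that missed the threshold (log2 fold change 3.90, SE 1.33, adjusted p 0.145). The vesicular glutamate transporter slc17a7a had 0, 0.556, 1.48, 1.89 and 2.06 CPM in photoreceptors, against 0, 0, 0, 0 and 0.515 CPM in amacrine and horizontal cells, little more than the detection limit.

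Membrane pumps and potassium channels gave some of the sharpest separations. Of 35 matched members 16 were tested, and 3 were called higher and none lower, where 2.52% and 2.30% of all genes were called. Each of the 3 had at most 2 counts over all amacrine and horizontal libraries. They passed the filter on low counts through photoreceptors alone and could only be called higher. The sodium pump subunit atp1b2b (ENSDARG00000034424, chromosome 5, 38475531 to 38506981) had 80.9, 167, 234, 212 and 196 CPM in photoreceptors, against 0, 0.0680, 0, 0 and 0 CPM in amacrine and horizontal cells. A pair of counts in replicate 2 was all that amacrine and horizontal cells held, which gives a ratio of 13092 (counting interval 3624 to 108101), and the adjusted p was 2.82e-06. The channel subunit kcnv2a (ENSDARG00000076644), which modulates voltage-gated potassium channels of photoreceptors, had 22.4, 18.7, 21.96, 23.0 and 16.03 CPM in photoreceptors, against 0.0453, 0, 0, 0 and 0 CPM in amacrine and horizontal cells. With a single count in the other group, the ratio was 2254 (counting interval 404 to 89009) and the adjusted p 0.000897. Its sister kcnv2b had 6.13, 6.998, 21.8, 24.5 and 14.9 CPM in photoreceptors, against 0, 0, 0, 0 and 0 CPM in amacrine and horizontal cells. Photoreceptors were at least 118.7-fold higher (adjusted p 0.00521). The relative atp1b2a was not called, with 229, 278, 362, 331 and 305 CPM in photoreceptors, against 123, 209.7, 172, 199.6 and 197 CPM in amacrine and horizontal cells (log2 fold change 0.74, SE 0.20, adjusted p 0.0574), unless photoreceptor replicate 1 or amacrine and horizontal replicate 1 was left out (adjusted p 0.0347 and 0.0483).

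Retinoid, lipid and energy genes were called singly, where 4.81% of all genes were called. The retinol-binding protein gene rbp4l, 1 of 15 retinoid genes tested, had 29.0, 76.7, 49.4, 33.8 and 47.0 CPM in photoreceptors, against 0, 0.714, 0, 2.36 and 0 CPM in amacrine and horizontal cells (log2 fold change 6.25, SE 1.54, adjusted p 0.0374). Its call was lost without photoreceptor replicate 2, 3, 4 or 5 or amacrine and horizontal replicate 2 (adjusted p up to 0.0976) and in both settings that use the track range. Among 20 sterol and fatty acid genes the calls were elovl4b higher and elovl4a lower, and among 25 glycolysis and creatine genes ldhbb higher and ldhba lower. The abundant creatine kinase ckbb, at 996 ± 216 CPM in photoreceptors and 1054 ± 417 CPM in amacrine and horizontal cells (n = 5 each, SD), was not called (log2 fold change -0.08, SE 0.30, adjusted p 0.957).

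Transcription factors of amacrine and horizontal cells held more genes lower in photoreceptors than any other list. This list too was chosen with earlier results of these data known, and it includes ptf1a, whose reporter set the gate. Of 44 matched members 35 were tested, and 21 were called lower and none higher, where 2.30% and 2.52% of all genes were called. The median log2 fold change was -3.85, and 1 was positive. Without amacrine and horizontal replicate 1, 22 were lower, where 3.23% of all genes were. The AP-2 factors, needed for amacrine and horizontal differentiation, were called for all 5 members tested. The gene tfap2a (ENSDARG00000059279, chromosome 24, 8721676 to 8732519) had 0, 8.90, 2.39, 0 and 5.44 CPM in photoreceptors, against 497, 730.4, 544, 470.5 and 739 CPM in amacrine and horizontal cells. Photoreceptor libraries held it at a few CPM or not at all (log2 fold change -7.47, SE 1.25, adjusted p 0.00502). The gene tfap2b (ENSDARG00000012667, chromosome 20, 47686629 to 47704973) had 0.0487, 0.0981, 0.824, 1.38 and 5.31 CPM in photoreceptors, against 515, 338, 266, 500.2 and 669 CPM in amacrine and horizontal cells. The highest photoreceptor library, replicate 5, was far under the lowest of the other group (log2 fold change -8.22, SE 1.07, adjusted p 0.00106). The gene tfap2e had 0.0487, 0, 0, 0 and 0.165 CPM in photoreceptors, against 21.5, 6.12, 36.7, 46.3 and 90.04 CPM in amacrine and horizontal cells (log2 fold change -9.77, SE 1.43, adjusted p 0.0021). The members tfap2c and tfap2d, named after their values were seen, kept some RNA in photoreceptors, with means of 17.3 ± 4.88 CPM in photoreceptors and 495 ± 118 CPM in amacrine and horizontal cells for tfap2c (n = 5 each, SD; log2 fold change -4.84, SE 0.28, adjusted p 2.82e-06). For tfap2d the means were 19.7 ± 10.1 CPM in photoreceptors and 204 ± 66.3 CPM in amacrine and horizontal cells (n = 5 each, SD; log2 fold change -3.37, SE 0.40, adjusted p 0.000755).

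Pax6, a master regulator of the eye that amacrine cells retain, has a pair of genes in zebrafish, and both were lower in photoreceptors. The gene pax6b (ENSDARG00000045936, chromosome 7, 15871156 to 15900606) had 113, 43.8, 50.2, 73.8 and 62.2 CPM in photoreceptors, against 2114, 1952, 1120.1, 1475 and 1234 CPM in amacrine and horizontal cells. The gene pax6a (ENSDARG00000103379, chromosome 25, 15029041 to 15049781) had 97.4, 40.8, 35.4, 28.7 and 76.7 CPM in photoreceptors, against 1160.1, 992, 836, 876 and 1007 CPM in amacrine and horizontal cells. For neither did any library overlap, and both were still detected in all photoreceptor libraries (pax6b, log2 fold change -4.53, SE 0.32, adjusted p 1.14e-05; pax6a, log2 fold change -4.13, SE 0.35, adjusted p 8.18e-05). The Pax6-related gene pax10 had 0, 0, 0, 0.911 and 0 CPM in photoreceptors, against 56.1, 118, 92.6, 101 and 152 CPM in amacrine and horizontal cells (log2 fold change -9.05, SE 1.42, adjusted p 0.00332). All 27 photoreceptor counts lay in replicate 4. Without it the fitted log2 fold change was -14.32, a value that depends on a small added count.

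Subtype factors were lower as well. The amacrine and ganglion factor barhl2 (ENSDARG00000104361) had 5.30, 19.2, 3.96, 2.396 and 29.9 CPM in photoreceptors, against 713, 597, 532, 809 and 574 CPM in amacrine and horizontal cells. The groups were far apart (log2 fold change -5.73, SE 0.70, adjusted p 0.000795). The horizontal cell factor lhx1a (ENSDARG00000014018) had 0.0487, 0, 0, 0 and 0.0412 CPM in photoreceptors, against 120.4, 17.8, 25.6, 41.4 and 44.9 CPM in amacrine and horizontal cells. Amacrine and horizontal replicate 1 was the highest, and photoreceptors held 2 counts in all, which gives a ratio of amacrine and horizontal cells over photoreceptors of 2783 (counting interval 771 to 22983), with an adjusted p of 0.000273. The homeobox gene meis2b had 0, 0.0327, 0, 1.28 and 0.165 CPM in photoreceptors, against 54.8, 274, 260.4, 326 and 433 CPM in amacrine and horizontal cells (log2 fold change -9.74, SE 1.24, adjusted p 0.000956). Amacrine and horizontal replicate 1 was here the lowest of its group. The zinc finger gene tshz3a had 0, 0, 0, 0 and 0 CPM in photoreceptors, against 41.1, 32.3, 67.0, 10.01 and 32.6 CPM in amacrine and horizontal cells. Photoreceptors had no count in any library, so they were at least 309-fold lower (adjusted p 0.00114).

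Further members called lower, named after their values were seen, were the horizontal cell factor onecut1 (14.5 ± 17.3 CPM in photoreceptors and 177 ± 24.2 CPM in amacrine and horizontal cells; n = 5 each, SD; log2 fold change -3.61, adjusted p 0.0067) and zfhx4 (14.4 ± 6.31 CPM in photoreceptors and 332 ± 117 CPM in amacrine and horizontal cells; -4.53, adjusted p 8.96e-05). The neurogenic factor foxn4, which acts upstream of ptf1a in mouse, had the smallest change of the called members named here, at 187 ± 33.3 CPM in photoreceptors and 445 ± 70.0 CPM in amacrine and horizontal cells (n = 5 each, SD; log2 fold change -1.25, SE 0.18, adjusted p 0.0021). The amacrine factor prdm13 averaged 18.5 ± 16.9 CPM in photoreceptors and 366 ± 81.0 CPM in amacrine and horizontal cells (n = 5 each, SD; log2 fold change -4.30, SE 0.97, adjusted p 0.0243), a call lost without photoreceptor replicate 3, 4 or 5 (adjusted p up to 0.0794). The LIM homeobox gene isl1 had 199, 29.4, 4.99, 6.61 and 112 CPM in photoreceptors, against 1554, 611, 831, 830.1 and 1018 CPM in amacrine and horizontal cells. Photoreceptor replicates 1 and 5 were high within their group (log2 fold change -3.78, SE 0.90, adjusted p 0.0306), and the call was lost without photoreceptor replicate 2 or 5 or amacrine and horizontal replicate 3 (adjusted p up to 0.0836) and within the larger track range. The members barhl1a and ebf2 were not called (adjusted p 0.111 and 0.061), and photoreceptor replicate 1 was the highest of its group for both, at 92.8 and 107.0 CPM. Without it the adjusted p was 0.00649 and 0.00787, and for ebf2 it was 0.0481 without amacrine and horizontal replicate 5.

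Few genes of GABA, glycine and acetylcholine transmission had enough counts to be tested. Of 26 matched members 2 were tested, and 1 was called lower and none higher, where 2.30% and 2.52% of all genes were called. The vesicular GABA and glycine transporter slc32a1 (ENSDARG00000059775, chromosome 6, 60142619 to 60147517) had 0.0487, 0, 0, 0 and 0 CPM in photoreceptors, against 2.77, 147, 105, 27.0 and 57.0 CPM in amacrine and horizontal cells. Photoreceptors held 1 count, in replicate 1, so the ratio of amacrine and horizontal cells over photoreceptors was 6962 (counting interval 1249.6 to 274999), with an adjusted p of 0.000681. With a minimum count of 50 the gene could not be tested. The GABA-producing enzyme gene gad2 did not pass the filter on low counts, with 0, 0, 0.0412, 0.337 and 0.0412 CPM in photoreceptors, against 0.0453, 19.5, 60.9, 20.2 and 54.4 CPM in amacrine and horizontal cells. Amacrine and horizontal replicate 1 held a single count, and the other 4 libraries were all above photoreceptors. When replicate 1 was left out, 4 genes of the list were tested and 2 were called lower, where 3.23% of all genes were. The second such enzyme gene, gad1b, had 0.0487, 0, 0, 0 and 0.0412 CPM in photoreceptors, against 0.0453, 0, 0, 29.2 and 20.2 CPM in amacrine and horizontal cells, so only amacrine and horizontal replicates 4 and 5 held it. The glycine transporter slc6a9 overlapped between the groups (log2 fold change -2.43, SE 1.06, adjusted p 0.285). Only 4 of 70 matched neurotransmitter receptor genes could be tested, and none was called, where 4.81% of all genes were.

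Of 38 matched genes of neuronal differentiation 25 were tested, with a median log2 fold change of -1.64. Of these, 8 were called lower in photoreceptors and none higher, where 2.30% and 2.52% of all genes were called. The SoxC factor sox11a (ENSDARG00000077811) had 327, 286, 199, 168 and 229.6 CPM in photoreceptors, against 1121, 964, 973, 717 and 938 CPM in amacrine and horizontal cells. Photoreceptor libraries formed a tight low group (log2 fold change -1.96, SE 0.21, adjusted p 0.000394). The tubulin gene tubb5 (ENSDARG00000037997) had 145, 52.8, 54.1, 98.8 and 127 CPM in photoreceptors, against 876, 713, 491, 268 and 379 CPM in amacrine and horizontal cells, also without overlap (log2 fold change -2.51, SE 0.39, adjusted p 0.00301). The zinc finger gene insm1a had 369.9, 236, 204, 336 and 227.2 CPM in photoreceptors, against 623, 777, 635, 468 and 363 CPM in amacrine and horizontal cells (log2 fold change -1.06, SE 0.24, adjusted p 0.0256). Its groups overlapped at 1 library each, and the call was lost without photoreceptor replicate 2, 3 or 5 or amacrine and horizontal replicate 2 or 3 (adjusted p up to 0.085), with unscaled totals and within the larger track range. The RNA-binding protein gene elavl3, a marker of postmitotic neurons, had 239, 18.6, 4.57, 1.11 and 49.5 CPM in photoreceptors, against 1339, 637, 840.0, 572 and 544 CPM in amacrine and horizontal cells. It did not overlap but was not called (log2 fold change -3.65, SE 1.09, adjusted p 0.091), and photoreceptor replicate 1 stood far above its group; without that library the adjusted p was 0.00988. The bHLH gene neurod4 was even, at 1108 ± 172 CPM in photoreceptors and 1121 ± 291 CPM in amacrine and horizontal cells (n = 5 each, SD; adjusted p 0.989).

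Axon genes were called in both directions, with 3 higher and 6 lower of 45 tested and 81 matched, where 2.52% of all genes were higher and 2.30% lower. The collapsin response mediator dpysl3 had 41.5, 6.70, 32.9, 20.01 and 29.0 CPM in photoreceptors, against 91.3, 233, 247, 117 and 101 CPM in amacrine and horizontal cells (log2 fold change -2.60, SE 0.48, adjusted p 0.00795), and its call was absent in the fit to all 20 libraries. The related gene dpysl5a had 63.0, 96.8, 44.8, 68.7 and 89.1 CPM in photoreceptors, against 206, 201, 229, 293 and 266 CPM in amacrine and horizontal cells (log2 fold change -1.72, SE 0.24, adjusted p 0.00162). The axonal adhesion gene nfasca averaged 13.1 ± 7.09 CPM in photoreceptors and 124 ± 53.5 CPM in amacrine and horizontal cells (n = 5 each, SD; log2 fold change -3.25, SE 0.53, adjusted p 0.00433). Higher in photoreceptors was the guidance receptor robo3, with 171, 63.4, 73.3, 131 and 95.6 CPM in photoreceptors, against 10.3, 24.6, 3.95, 28.9 and 33.5 CPM in amacrine and horizontal cells. The groups did not overlap (log2 fold change 2.398, SE 0.55, adjusted p 0.0247), although the call was lost without photoreceptor replicate 1 or 4 (adjusted p up to 0.0619) and within the larger track range. The ephrin gene efna5b was low, with 5.50, 1.80, 6.76, 5.26 and 1.94 CPM in photoreceptors, against 0, 0, 0, 0 and 0 CPM in amacrine and horizontal cells, and at least 34.0-fold higher in photoreceptors (adjusted p 0.00921). The semaphorin gene sema3aa had 215, 171, 136, 308 and 156 CPM in photoreceptors, against 0, 0.102, 0.0476, 18.7 and 14.6 CPM in amacrine and horizontal cells. It separated the groups without passing the threshold (log2 fold change 4.88, SE 1.45, adjusted p 0.0888), and without amacrine and horizontal replicate 1 its adjusted p was 0.0488.

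Retinal ganglion cell markers were lower in photoreceptors for 4 of 13 tested and higher for none, where 2.30% of all genes were lower and 2.52% higher; 19 were matched. The LIM homeobox gene isl2b (ENSDARG00000053499) had 29.97, 11.5, 3.09, 7.80 and 14.4 CPM in photoreceptors, against 277, 115, 107, 249 and 90.2 CPM in amacrine and horizontal cells (log2 fold change -3.65, SE 0.59, adjusted p 0.00416). The RNA-binding protein gene rbpms2a had 39.1, 15.21, 5.98, 9.45 and 14.3 CPM in photoreceptors, against 158, 207, 252.2, 119.0 and 79.8 CPM in amacrine and horizontal cells (log2 fold change -3.28, SE 0.52, adjusted p 0.00375). The POU factor pou4f2 had 30.4, 1.70, 4.86, 2.02 and 8.77 CPM in photoreceptors, against 98.6, 87.0, 97.9, 120.2 and 181 CPM in amacrine and horizontal cells (log2 fold change -3.62, SE 0.76, adjusted p 0.0153), a call lost without photoreceptor replicate 3 (adjusted p 0.0511). The zinc finger gene klf7b had 28.7, 4.97, 2.97, 0.709 and 10.9 CPM in photoreceptors, against 162, 74.9, 119.5, 44.4 and 47.8 CPM in amacrine and horizontal cells (log2 fold change -3.22, SE 0.84, adjusted p 0.049), and its call was lost without any library other than photoreceptor replicate 1 and amacrine and horizontal replicate 5 (adjusted p up to 0.123) and in both other scalings. For all 4 genes photoreceptor replicate 1 was the highest of its group and lay under the other group. The summed level of the 19 markers was 138 to 667 CPM in photoreceptors and 1208 to 2432 CPM in amacrine and horizontal cells, and the part of ganglion cells in these differences was not tested. In sorted ganglion cells pou4f2 averaged 94.3 CPM, within the range of the amacrine and horizontal libraries. Sorted ganglion cells were also placed on a log2(CPM + 1) scale, with 0 the amacrine and horizontal mean and 1 the photoreceptor mean. They lay at 0.10 for pou4f2, 0.13 for klf7b, 0.34 for isl2b and 0.64 for rbpms2a. All 4 genes were thus lower in sorted ganglion cells than the amacrine and horizontal mean.

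Of 37 matched cell cycle genes 36 were tested, and 7 were called higher in photoreceptors and none lower, where 2.52% and 2.30% of all genes were called. Of the 36, 28 were positive, where 50.9% of all genes were, and the median log2 fold change was 0.49. Without amacrine and horizontal replicate 1, 9 were higher, where 5.24% of all genes were. The replication clamp pcna (ENSDARG00000054155, chromosome 10, 40821804 to 40826657) had 2488, 2535, 3453, 2749 and 3181 CPM in photoreceptors, against 749, 712, 1175, 636 and 1166 CPM in amacrine and horizontal cells. All photoreceptor libraries were more than double the highest of the other group (log2 fold change 1.70, SE 0.21, adjusted p 0.000934). Cyclin D1, ccnd1 (ENSDARG00000101637, chromosome 7, 54668303 to 54679595), had 3109, 2852, 2669.5, 2714 and 2179 CPM in photoreceptors, against 1230.2, 643, 675, 633 and 850.4 CPM in amacrine and horizontal cells (log2 fold change 1.75, SE 0.21, adjusted p 0.000786). Cyclin A2, ccna2, had 352, 362, 452, 397 and 508 CPM in photoreceptors, against 209, 118, 233, 217 and 205 CPM in amacrine and horizontal cells (log2 fold change 1.08, SE 0.21, adjusted p 0.00934). The thymidylate synthase gene tyms, named after its values were seen, averaged 129 ± 7.85 CPM in photoreceptors and 28.02 ± 16.4 CPM in amacrine and horizontal cells (n = 5 each, SD; log2 fold change 2.20, SE 0.40, adjusted p 0.007). With the 20 libraries scaled together, sorted progenitors averaged 3053 CPM for pcna, 1538 for ccnd1 and 95.9 for tyms. Photoreceptors averaged 2928, 2751 and 131 CPM on that scale. Whether cells of the photoreceptor gate were still dividing was not tested. The proliferation marker mki67 and the mitotic kinase gene cdk1 overlapped and were not called, with log2 fold changes of 0.49 and 0.51 (adjusted p 0.305 and 0.328). The calls for rrm1, ccne1 and mcm4 depended on single libraries. That for rrm1, a ribonucleotide reductase subunit, was lost without any photoreceptor library or amacrine and horizontal replicate 2 or 3 (adjusted p up to 0.109). That for ccne1, a cyclin of S phase entry, was lost without any photoreceptor library or amacrine and horizontal replicate 2, 3 or 4 (up to 0.105), and that for mcm4, a subunit of the replicative helicase, without photoreceptor replicate 2 or 3 or amacrine and horizontal replicate 2, 4 or 5 (up to 0.0671). The summed level of the progenitor and Müller glia markers was 22078 to 45781 CPM in photoreceptors and 11958 to 23432 CPM in amacrine and horizontal cells, and the part of progenitors in these differences was not tested. Most of that sum was fabp7a. Of 18 such markers tested, 3 were called higher (ccnd1, id1 and stmn1a) and 2 lower, where 2.52% and 2.30% of all genes were called. Of the 18, 9 were positive, and the median log2 fold change was -0.01. The call for id1 was lost without several single libraries (adjusted p up to 0.08). The remaining progenitor genes went both ways. The progenitor factor sox2 was lower in photoreceptors, with 92.5, 65.8, 41.9, 45.4 and 35.2 CPM in photoreceptors, against 124, 294, 264, 206 and 285 CPM in amacrine and horizontal cells (log2 fold change -2.06, SE 0.33, adjusted p 0.00357), as was the growth factor mdkb, with 9.88, 36.0, 36.1, 71.5 and 66.7 CPM in photoreceptors, against 126, 185, 230.3, 263 and 285 CPM in amacrine and horizontal cells (log2 fold change -2.31, SE 0.46, adjusted p 0.0107). The lipid carrier fabp7a, the most abundant of the list, overlapped, at 22031 ± 8234 CPM in photoreceptors and 12626 ± 4241 CPM in amacrine and horizontal cells (n = 5 each, SD; log2 fold change 0.80, SE 0.29, adjusted p 0.182).

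**Figure D3:**
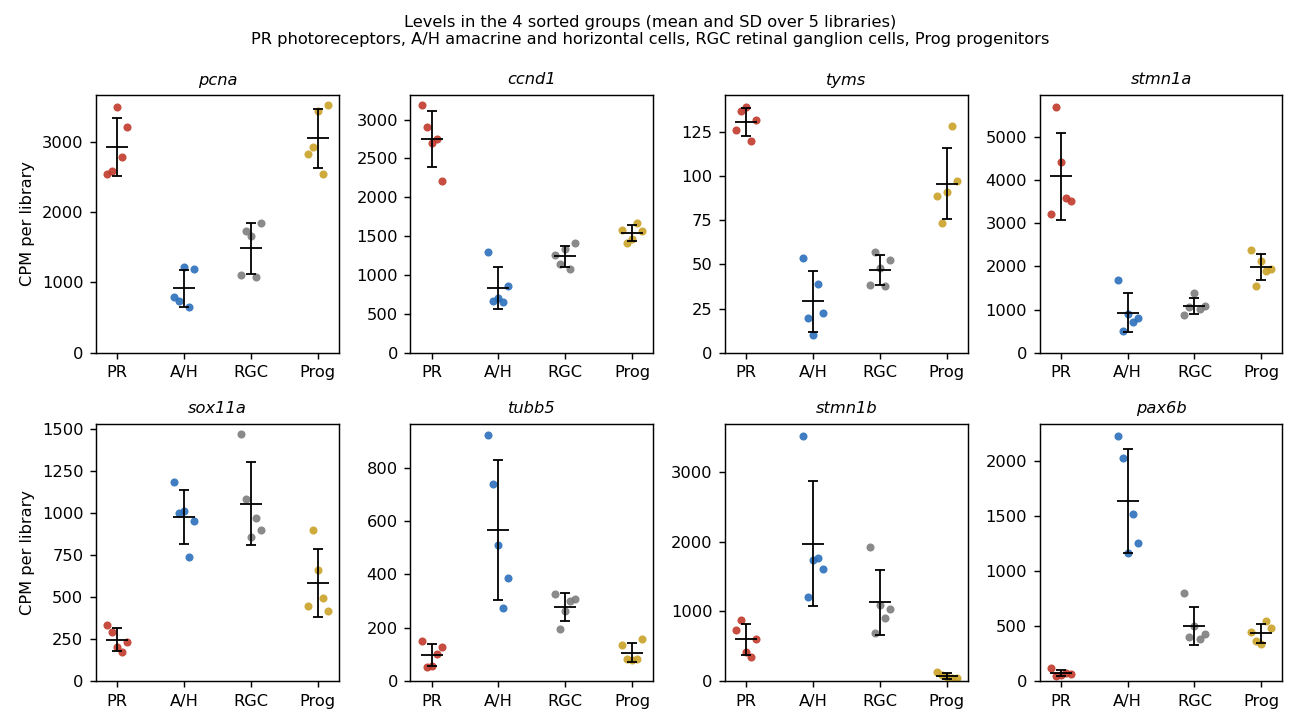
Levels of 8 genes (y, CPM of the 20 libraries scaled together) in photoreceptors, amacrine and horizontal cells, retinal ganglion cells and progenitors, with a dot per library and the mean and SD in black. The photoreceptor mean is the highest of the 4 groups for ccnd1, tyms and stmn1a and the lowest for sox11a, tubb5 and pax6b.

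Notch pathway genes gave 4 calls among 31 tested, 2 in each direction, where 4.81% of all genes were called, and none of the 4 held when every single library was left out in turn. The effector her8a had 53.4, 132, 103, 81.0 and 133 CPM in photoreceptors, against 35.7, 28.6, 42.6, 27.0 and 49.7 CPM in amacrine and horizontal cells (log2 fold change 1.45, SE 0.33, adjusted p 0.0233). Its call was lost without photoreceptor replicate 2, 3 or 5 or amacrine and horizontal replicate 2 or 4 (adjusted p up to 0.0808), in the fit to all 20 libraries and without the filter. The effector her4.4 averaged 50.6 ± 19.1 CPM in photoreceptors and 13.0 ± 5.30 CPM in amacrine and horizontal cells (n = 5 each, SD; log2 fold change 1.96, SE 0.47, adjusted p 0.0325), and was lost without photoreceptor replicate 1, 2, 3 or 5 or amacrine and horizontal replicate 2, 3 or 4 (up to 0.115), in voom, without the filter and in both settings that use the track range. The ligand gene dlc had 44.3, 21.4, 16.6, 8.98 and 24.6 CPM in photoreceptors, against 139.9, 180.3, 152, 59.5 and 43.8 CPM in amacrine and horizontal cells. Photoreceptor replicate 1 lay just above amacrine and horizontal replicate 5 (log2 fold change -2.31, SE 0.51, adjusted p 0.0198), and the call was lost without photoreceptor replicate 2, 3 or 5 or amacrine and horizontal replicate 2 (up to 0.0665). The fourth gene, hes6, was lower with a log2 fold change of -0.72 (adjusted p 0.0417), lost without photoreceptor replicate 2, 3, 4 or 5 or amacrine and horizontal replicate 2, 3 or 5 (up to 0.112), in both other scalings and without the filter.

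In 4 cases, genes whose names differ only in a final a or b were called in opposite directions. Of 939 such pairs with both genes tested, 15 had both members called, 11 in the same direction and 4 in opposite ones. Pairs were formed by name alone and include genes that are not copies of each other, such as the subunits chaf1a with chaf1b and rnaseh2a with rnaseh2b, and the family members tfap2a with tfap2b. This was noticed after the values were seen. The microtubule destabilizer stmn1a (ENSDARG00000004169, chromosome 19, 17205143 to 17210928) had 3134, 5589, 4369.9, 3538 and 3479 CPM in photoreceptors, against 1607, 489, 871, 694 and 785 CPM in amacrine and horizontal cells. Its sister stmn1b (ENSDARG00000033655, chromosome 16, 34523515 to 34527206) had 718, 862, 412, 343 and 593 CPM in photoreceptors, against 3340.1, 1159, 1678, 1719 and 1583 CPM in amacrine and horizontal cells. Neither overlapped, with stmn1a higher (log2 fold change 2.18, SE 0.30, adjusted p 0.00162) and stmn1b lower in photoreceptors (log2 fold change -1.70, SE 0.32, adjusted p 0.00861). Of 22 synaptic vesicle genes tested, stxbp1b was called higher and stxbp1a and rab3c lower, where 4.81% of all genes were called. The call for rab3c, a vesicle GTPase (log2 fold change -2.42, adjusted p 0.0403), was lost without photoreceptor replicate 2, 3, 4 or 5 or amacrine and horizontal replicate 2, 3 or 4 (adjusted p up to 0.106), with unscaled totals, without the filter, in the fit to all 20 libraries and in both settings that use the track range. The vesicle fusion gene stxbp1a had 8.95, 1.05, 0.659, 2.46 and 2.88 CPM in photoreceptors, against 93.5, 49.5, 33.6, 81.4 and 94.0 CPM in amacrine and horizontal cells (log2 fold change -4.46, SE 0.75, adjusted p 0.00507). Its sister stxbp1b had 167, 148, 272, 219.7 and 247 CPM in photoreceptors, against 0, 8.54, 0.0476, 14.5 and 15.205 CPM in amacrine and horizontal cells. It was higher in photoreceptors (log2 fold change 4.78, SE 1.21, adjusted p 0.0429), a call lost without any library other than amacrine and horizontal replicates 1 and 3 (adjusted p up to 0.0989) and with unscaled totals. Without amacrine and horizontal replicate 1 the adjusted p for stxbp1b was 0.0129.

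The lactate dehydrogenase gene ldhbb had 9.10, 8.96, 11.5, 13.3 and 7.95 CPM in photoreceptors, against 0, 0, 0, 0 and 0 CPM in amacrine and horizontal cells, and was at least 81.2-fold higher in photoreceptors (adjusted p 0.00577). The far more abundant ldhba had 121, 70.4, 107, 94.7 and 99.3 CPM in photoreceptors, against 169, 157, 244, 172 and 221 CPM in amacrine and horizontal cells (log2 fold change -0.96, SE 0.21, adjusted p 0.0216), a call lost without photoreceptor replicate 2, 3, 4 or 5 or amacrine and horizontal replicate 3 (adjusted p up to 0.0601), with unscaled totals and without the filter. The fatty acid elongase elovl4b had 191, 390.0, 480.3, 438 and 439 CPM in photoreceptors, against 0, 34.6, 17.9, 37.6 and 18.1 CPM in amacrine and horizontal cells (log2 fold change 4.16, SE 0.97, adjusted p 0.0271), and its call was lost without photoreceptor replicate 2, 3, 4 or 5 or amacrine and horizontal replicate 2, 3 or 5 (adjusted p up to 0.0673). Without amacrine and horizontal replicate 1 the adjusted p for elovl4b was 0.000212. Its sister elovl4a had 156, 83.3, 129.8, 121 and 111 CPM in photoreceptors, against 148, 190.2, 354, 295 and 223 CPM in amacrine and horizontal cells. Those groups overlapped (log2 fold change -1.01, SE 0.26, adjusted p 0.0479), and the call was lost without any library other than replicate 1 of either group (adjusted p up to 0.122), in both other scalings, without the filter and with the track range as a covariate. Reads that map to both copies of a pair were not counted, so the levels of close copies are uncertain.

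**Figure D4:**
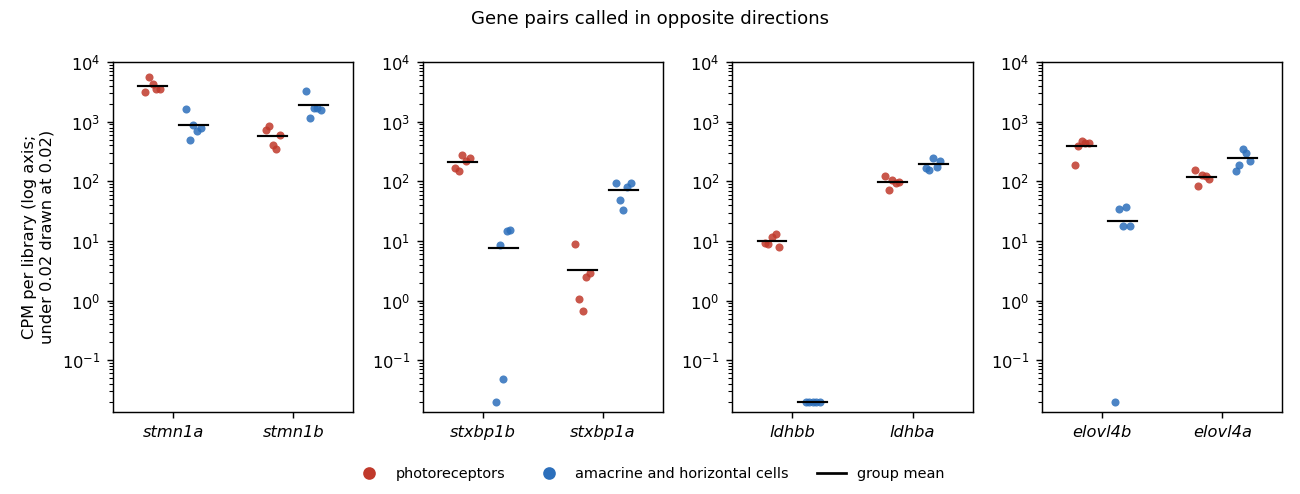
Levels in each library (y, CPM, log axis) of the 4 gene pairs whose members were called in opposite directions, with photoreceptors in red left of amacrine and horizontal cells in blue and bars at the group means. In each panel the gene on the left is higher and the gene on the right lower in photoreceptors; only elovl4a has overlapping dots.

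Genes outside the lists also showed large changes. Carbonic anhydrase CA7 (ENSDARG00000045139; symbols in capitals are those of the annotation table and may belong to several zebrafish genes) had 44.3, 75.8, 64.1, 47.0 and 59.4 CPM in photoreceptors, against 0, 0, 0, 0 and 0 CPM in amacrine and horizontal cells. Photoreceptors were at least 464-fold higher (adjusted p 0.000154). The same was so for the transporter SLC43A3, at least 354-fold higher with a mean of 44.3 CPM in photoreceptors. For HOPX, an atypical homeodomain gene, it was at least 299-fold, and for the polycomb-associated PHF19 at least 121-fold. The sphingomyelin synthase SGMS1 was at least 181-fold higher and the apoptosis regulator FAIM2 at least 184-fold higher (adjusted p 0.00205 and 0.00162). On the other side, the nuclear receptor NR2F6 had 0, 0, 0, 0.439 and 0.0412 CPM in photoreceptors, against 70.05, 20.7, 39.0, 18.1 and 24.9 CPM in amacrine and horizontal cells (log2 fold change -8.38, SE 1.51, adjusted p 0.00679), and the myosin light chain gene MYL7 had 0, 1.01, 0.0412, 0.202 and 0 CPM in photoreceptors, against 40.9, 129, 67.4, 46.2 and 64.1 CPM in amacrine and horizontal cells (log2 fold change -8.04, SE 1.28, adjusted p 0.00372).

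Among abundant genes, the sphingosine 1-phosphate receptor gene S1PR1 (ENSDARG00000042690, chromosome 22, 16038495 to 16042243) had 145, 179.6, 108, 69.1 and 105 CPM in photoreceptors, against 2891, 1699.8, 2092, 2088 and 1849 CPM in amacrine and horizontal cells. The groups were an order of magnitude apart (log2 fold change -4.13, SE 0.28, adjusted p 1.14e-05). The gene ppdpfb (ENSDARG00000031317) had 215, 225, 185, 147 and 189 CPM in photoreceptors, against 1337, 1348, 1385, 1840.4 and 2642 CPM in amacrine and horizontal cells, with photoreceptors again in a tight low group (log2 fold change -3.15, SE 0.24, adjusted p 2.15e-05). The fatty acid carrier FABP3 (ENSDARG00000023290) had 381, 232, 251, 155 and 233 CPM in photoreceptors, against 1847, 1126, 1827, 983 and 974 CPM in amacrine and horizontal cells (log2 fold change -2.43, SE 0.28, adjusted p 0.000681). Higher in photoreceptors were mibp, at 1896 ± 487 CPM in photoreceptors and 621 ± 146 CPM in amacrine and horizontal cells (n = 5 each, SD; log2 fold change 1.61, SE 0.23, adjusted p 0.00185), and the histone chaperone ANP32E, at 1613 ± 286 CPM in photoreceptors and 662 ± 98.2 CPM in amacrine and horizontal cells (n = 5 each, SD; log2 fold change 1.29, SE 0.17, adjusted p 0.00128).

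Lists of other cells had few members tested. Called lower were 1 of 6 bipolar markers and the 1 microglia and leukocyte marker tested. Of 17 stress genes tested, 1 was called higher and 1 lower, where 2.52% and 2.30% of all genes were called. No lens marker could be tested. Of retinal pigment epithelium and of mesenchyme markers 2 each were tested, and none was called. The bipolar factor vsx1 had 316, 348, 411, 298 and 415 CPM in photoreceptors, against 855, 1405, 884, 1169 and 1799 CPM in amacrine and horizontal cells. It was lower in photoreceptors without overlap (log2 fold change -1.77, SE 0.23, adjusted p 0.000956), and the other 5 bipolar markers tested were not called. Bipolar markers summed to 349 to 478 CPM in photoreceptors and 876 to 2004 CPM in amacrine and horizontal cells, and the part of bipolar cells was not tested. In every library most of that sum was vsx1. The microglial and glial lipid carrier apoeb had 29.9, 41.2, 13.4, 19.7 and 13.2 CPM in photoreceptors, against 100.2, 114, 98.8, 129.96 and 52.5 CPM in amacrine and horizontal cells (log2 fold change -2.08, SE 0.41, adjusted p 0.00993), and its call was absent in the fit to all 20 libraries. Microglia and leukocyte markers summed to 13.5 to 41.2 CPM in photoreceptors and 59.1 to 249.7 CPM in amacrine and horizontal cells. Most of that sum was apoeb, except in amacrine and horizontal replicate 1, where lcp1 was the larger part. The defining microglial markers p2ry12 and csf1ra had 0 and 2 counts in all 10 libraries. Lens markers summed to at most 3.53 CPM in any library, retinal pigment epithelium markers to at most 21.8 CPM and mesenchyme markers to at most 15.6 CPM. Genes of dissociation stress summed to 6358 to 10690 CPM in photoreceptors and 6846 to 10998 CPM in amacrine and horizontal cells. Of 17 tested, dusp1 was higher in photoreceptors (456, 525, 609, 474 and 491 CPM in photoreceptors, against 198, 241, 199, 379 and 298 CPM in amacrine and horizontal cells; log2 fold change 0.96, SE 0.21, adjusted p 0.0171), a call lost without photoreceptor replicate 3 (adjusted p 0.0624) and within the larger track range. The DNA damage gene gadd45ba was lower (36.3, 25.02, 18.3, 24.7 and 20.1 CPM in photoreceptors, against 135, 131, 104, 157 and 45.7 CPM in amacrine and horizontal cells; log2 fold change -2.21, SE 0.36, adjusted p 0.00453). Adhesion genes gave 3 calls among 28 tested and apical polarity genes 2 among 22, where 4.81% of all genes were called. The adhesion gene lrrn1 averaged 738 ± 140.4 CPM in photoreceptors and 307 ± 163 CPM in amacrine and horizontal cells (n = 5 each, SD; log2 fold change 1.27, SE 0.29, adjusted p 0.0275), a call lost without photoreceptor replicate 2, 3 or 5 or any of amacrine and horizontal replicates 2 to 5 (adjusted p up to 0.0741). Without amacrine and horizontal replicate 1 the adjusted p for lrrn1 was 0.000529. The immunoglobulin-type adhesion gene alcama was lower in photoreceptors, at 17.4 ± 18.6 CPM in photoreceptors and 218 ± 92.8 CPM in amacrine and horizontal cells (n = 5 each, SD; log2 fold change -3.65, SE 0.84, adjusted p 0.0263), lost without photoreceptor replicate 2 or 3 or amacrine and horizontal replicate 4 (adjusted p up to 0.0779) and within the larger track range. The protocadherin pcdh11 had 19.8, 27.1, 4.70, 12.2 and 10.999 CPM in photoreceptors, against 0.0907, 0, 0.0952, 0.0421 and 0.119 CPM in amacrine and horizontal cells (log2 fold change 7.67, SE 1.28, adjusted p 0.00482). The polarity gene pard6b was detected in photoreceptors at low level, with 1.56, 0.818, 1.77, 1.45 and 0.948 CPM in photoreceptors, against 0, 0, 0, 0 and 0 CPM in amacrine and horizontal cells, and was at least 10.5-fold higher (adjusted p 0.00576), a call lost without the filter on low counts.

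**Figure D5:**
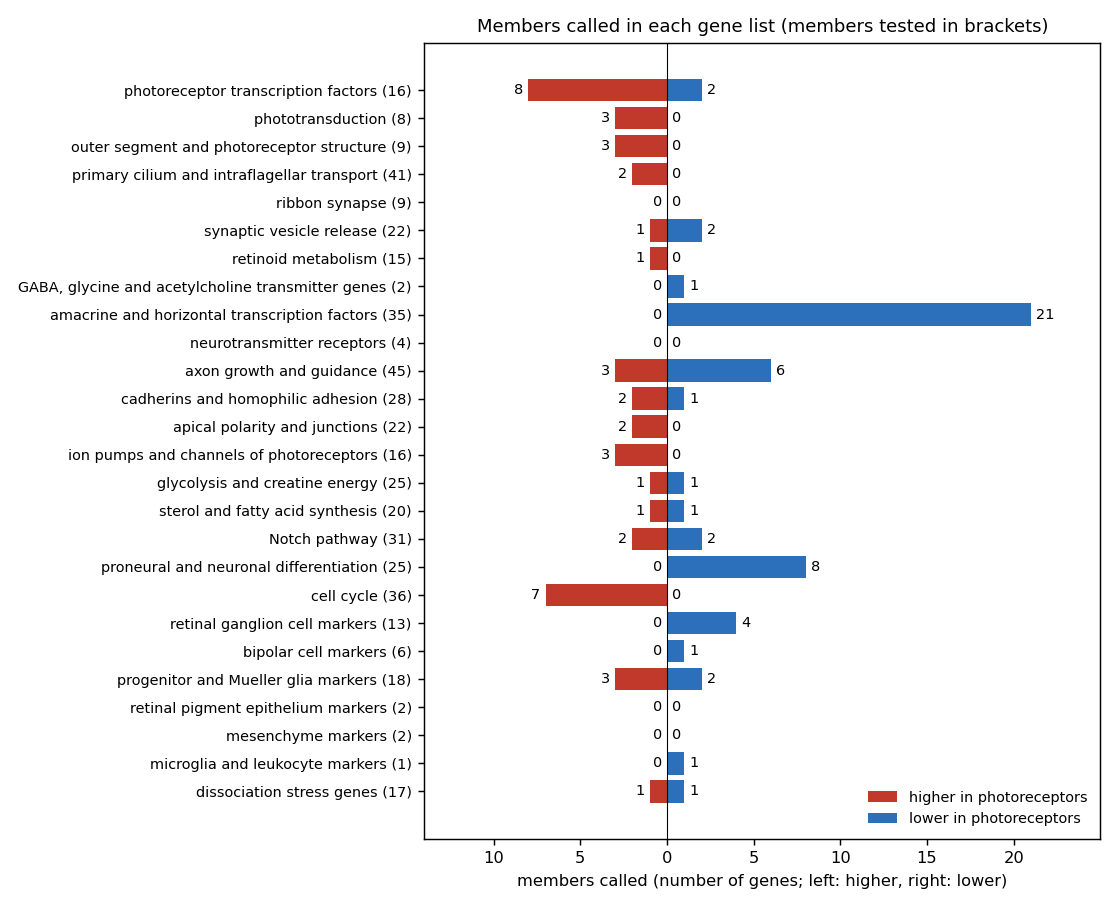
Members of each gene list called higher in photoreceptors (red, to the left) and lower in photoreceptors (blue, to the right), in numbers of genes, with the number of members tested in brackets. The amacrine and horizontal factors (21 lower), photoreceptor factors (8 higher), neuronal differentiation genes (8 lower) and cell cycle genes (7 higher) are the 4 longest bars.

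The sorted groups that took no part in the comparison were then placed between its ends for the genes called, on a scale of log2(CPM + 1) where 1 is the photoreceptor mean and 0 the amacrine and horizontal mean. For the 264 genes lower in photoreceptors, progenitors had a median position of 0.859, and 76.5% of the genes lay nearer to photoreceptors. Ganglion cells had a median of 0.380, with 34.5% nearer to photoreceptors. For the 289 genes higher in photoreceptors, ganglion cells had a median of 0.336 and progenitors 0.394, with 25.6% and 43.6% of the genes nearer to photoreceptors. The 10 libraries of those 2 groups were not used to choose the genes, and these shares are a description with no test. As single cases, tfap2a averaged 13.9 CPM in ganglion cells and 4.82 in progenitors, S1PR1 369 and 107, atp1b2b 3.13 and 0.762, and nr2e3 447 and 17.0.

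Genes with at least 1 count numbered 16641 ± 1607 in photoreceptors and 14264 ± 1501 in amacrine and horizontal cells (n = 5 each, SD). The difference of 2377 genes had an exact permutation p of 0.0476 (2-sided; the smallest p the test allows is 0.00794). It no longer passed with at least 10 counts per gene or with every library thinned to the smallest total, nor without any 1 library except photoreceptor replicate 1 and amacrine and horizontal replicate 5. Amacrine and horizontal replicate 1 had the fewest genes with 10 counts, 7031, and without it the difference was 1943 genes (exact permutation p 0.0952).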

How the data were processed

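RNA of sorted zebrafish retinal cells was measured as SmartSeq-2 libraries sequenced on a NextSeq 500, per the labels' protocols. The authors deposited raw read counts per gene, made with featureCounts 1.6.3 on Ensembl release 95 genes of GRCz11 with strand ignored, a mapping quality of at least 1 and no multi-mapping reads, per the file headers. GSNAP and bcl2fastq 2.19.1 are named in the submitters' processing notes. Close gene copies and overlapping or antisense genes may therefore be miscounted. The deposited table also gives gene lengths, which were not used.

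Of 32520 genes, 92 spike-in features set aside, those passing filterByExpr (minimum count 10) were tested with edgeR 4.0.16 (quasi-likelihood, TMM, R 4.3.3) on the 10 libraries, with Benjamini-Hochberg adjustment over all of them. The spread came from these 10 libraries, the ones compared. The common dispersion was 0.547 in photoreceptors and 1.99 in amacrine and horizontal cells. It was 1.22 in the fit to the 10 libraries and 1.26 in the fit to all 20, so either fit pools groups of unequal spread. Positive log2 fold changes are higher in photoreceptors. DESeq2 1.42.0 and limma 3.58.1 (voom) were alternatives, beside other scalings, filters, covariates and libraries left out. Where one group had no count, a fold is a bound from a floor of 3 counts per library; such floors and the 95% exact Poisson intervals of the few counts behind a ratio cover counting error only. On simulated counts with 10714 genes for this comparison, 25% of 4-fold and 48% of 16-fold changes were called, and 3.95% of calls were false. The simulation gave both groups the same dispersion for a gene and had no library that stood apart. The real groups differ in both respects, so these rates do not carry over to the calls reported here.

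Members and gene lists were chosen with earlier results of these data known; 897 of 980 list symbols were matched. Genes are named by rule: the reporter genes; in each list up to 4 called genes per direction and up to 3 others, by level; and outside the lists, in each direction, the 10 genes of largest change with at least 10 CPM and no overlap, and the 8 most abundant with an absolute log2 fold change of at least 1. Genes that had too few counts to be tested, and those so marked in the text, were chosen after their values were seen.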

Additional observations from a re-analysis of the deposited data

Results flagged for a closer look

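Within a group of 5 libraries, a library was taken up here where its gap to the nearest other library exceeded 0.71 of the group's range (Dixon's 95% critical value). Such a library was found in 30 of 262 groups examined (11.5%), where chance gives about 5%, 1 in 20, for values that follow a normal distribution. Groups of zeros with counts in 1 library pass this ratio by construction, as for slc32a1 and pax10 in photoreceptors and kcnv2a, atp1b2b, gnat1, sagb and slc17a7a in amacrine and horizontal cells, so the share is not a measure of excess over chance.

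In photoreceptors, replicate 1 was the outlying library for 9 of these: elavl3 at 239 CPM, ebf2 at 107.0, barhl1a at 92.8, onecut1 at 44.9, rbpms2a at 39.1, pou4f2 at 30.4, stxbp1a at 8.95 and slc32a1 at 0.0487 CPM, all above the other 4 libraries, and neurod1, below them at 1332 CPM. Replicate 4 was the highest library for sagb (13.0 CPM), meis2b (1.28 CPM), pax10 (0.911 CPM), NR2F6 (0.439 CPM) and gad2 (0.337 CPM). Replicate 5 was the highest for tfap2b (5.31 CPM) and replicate 2 for MYL7 (1.01 CPM). In sorted ganglion cells elavl3 averaged 373 CPM and rbpms2a 36.8 CPM.

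In amacrine and horizontal cells, replicate 1 was the highest library for stmn1b (3340.1 CPM), lrrn1 (595 CPM), lhx1a (120.4 CPM), cnga3a (0.363 CPM) and kcnv2a (0.0453 CPM, a single count), and the lowest for chaf1a (18.8 CPM). Replicate 2 stood apart for onecut1 (220.0 CPM), ccna2 (118 CPM, the lowest of its group) and atp1b2b (0.0680 CPM). Replicate 3 was the highest for samd11 (178 CPM). Replicate 4 was the highest for gnat1 (0.0841 CPM) and sagb (0.0421 CPM), and replicate 5 stood apart for ccne1 (12.9 CPM) and slc17a7a (0.515 CPM).

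Spike-in sequences, which are outside the genes tested, had 6 counts in amacrine and horizontal replicate 1 and 4 counts in replicate 4, above the limit of 3 counts that a count of 0 allows.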

How the results depend on the processing

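Set against the 553 calls, calls numbered 546 with DESeq2's size factors in edgeR, 518 with library totals, 461 without a filter on low counts, 515 with a minimum count of 50, 598 with the range of track numbers as a covariate and 558 with robust estimation. The fit to all 20 libraries called 1205 genes (660 higher and 545 lower), the DESeq2 Wald test 1177 (589 higher and 588 lower), voom 1504 (834 higher and 670 lower), and the larger track range alone 985, of which 608 were higher. Leaving out 1 library gave 359 to 1039 calls, 201 to 643 of them higher and 158 to 396 lower.

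Same-numbered libraries correlated at -0.04 to 0.10 in their deviations from the group means, and libraries of unlike number at -0.12 to 0.08. Amacrine and horizontal replicates 1, 4 and 5 correlated most with the photoreceptor library of their own number (0.06, 0.10 and 0.10). Replicates 2 and 3 correlated most with a library of another number. The labels do not say whether a number marks a shared origin, and weak correlations cannot show that it does not. In the column names, libraries with the same replicate number carry consecutive library numbers and the same letter, or none, after the sample number. What this grouping stands for is not stated. The main fit treats the libraries as unpaired. With the replicate block 223 genes were called, 107 higher and 116 lower, 214 of them among the 553. Of the 115 called genes that the naming rule or the text takes up (CRX aside), 115 kept their call in DESeq2 and with robust estimation, 113 in voom, 109 in the fit to all 20 libraries, 111 with DESeq2's size factors, 103 with library totals, 108 with the track range as covariate, 101 within the larger track range, 105 without the filter and 60 with the block. With a minimum count of 50, 111 kept it and 3 could not be tested. None of the 115 changed direction in any setting tried. The genes ptf1a and stx3a were not called by edgeR in any of these settings, but DESeq2 called both and voom called stx3a.

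The difference in genes detected was 2385 with at least 10 counts and 2577 after thinning (exact permutation p 0.0556 for each), and 1943 to 3019 with 1 library left out. The count of genes whose groups do not overlap, 1289, was 1296 with DESeq2's size factors and 1359 to 1770 with 1 library left out. The cause of these changes was not tested. Depth limits what can be said of genes with low counts: 14002 genes had a count but were not tested, and 83 of the 553 called genes averaged under 10 CPM in their higher group. Promoter motifs were not run, since no promoter sequences were at hand.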

Other observations

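Genes of chromatin assembly and retinoid receptors outside the lists were also called; they are named after their values were seen. The chromatin assembly factor subunit gene chaf1a averaged 253 ± 70.0 CPM in photoreceptors and 69.8 ± 29.5 CPM in amacrine and horizontal cells (n = 5 each, SD; log2 fold change 1.86, SE 0.37, adjusted p 0.012). Its partner CHAF1B averaged 122 ± 46.4 CPM in photoreceptors and 29.8 ± 17.6 CPM in amacrine and horizontal cells (n = 5 each, SD; log2 fold change 2.03, SE 0.47, adjusted p 0.0272), a call lost without photoreceptor replicate 1, 3 or 4 or amacrine and horizontal replicate 2 or 3 (adjusted p up to 0.0677). The retinoid X receptor gene rxrga had 405, 505, 490.4, 512 and 451 CPM in photoreceptors, against 0, 32.6, 24.6, 44.6 and 4.395 CPM in amacrine and horizontal cells (log2 fold change 4.48, SE 1.03, adjusted p 0.0265), and its call was lost without photoreceptor replicate 2, 3, 4 or 5 or amacrine and horizontal replicate 2 or 3 (adjusted p up to 0.0609). Its sister rxrgb had 162, 284, 244, 202 and 218 CPM in photoreceptors, against 0.0907, 19.1, 28.2, 24.9 and 7.92 CPM in amacrine and horizontal cells (log2 fold change 3.79, SE 0.86, adjusted p 0.0248), with the call lost without photoreceptor replicate 2 or 3 or amacrine and horizontal replicate 2 or 5 (adjusted p up to 0.0594). Without amacrine and horizontal replicate 1 the adjusted p was 0.00106 for rxrga and 0.000386 for rxrgb.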
